A study of Mus musculus with 9 samples.

Results

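The immunoglobulin genes are the heavy chain, kappa and lambda gene segments and the joining chain gene Jchain. They were taken by gene symbol (segments V, D and J, the constant region genes of each class, and Jchain), which gave 261 of the 22054 genes in the table. They were measured in 9 bulk RNA-seq libraries of callus, the repair tissue that bridges a broken bone, taken on day 7 after a femoral fracture in male C57BL/6J mice aged 7 weeks. The labels name no genetic alteration, and all mice had the midshaft of the left femur cut and held by an intramedullary needle. Daily intraperitoneal injections of 200 μl began the day after surgery and lasted 1 week. They held PBS in the control group, 750 nmol of H-151, a small molecule inhibitor of STING, or 30 mg/kg of SR-717, a STING activator, with 3 libraries per group. STING is the adaptor that passes on the detection of cytosolic DNA by cGAS. The doses of the compounds are given in different units and the groups are compared as treated. The labels call the replicates biosamples and do not say whether each is 1 mouse, so p-values measure the spread between these samples.

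An antibody consists of paired heavy and light chains. In each B cell a V, a D and a J segment are joined into one heavy chain exon, and a V and a J segment of the kappa or the lambda locus into one light chain exon, which is spliced to a constant region. B cells start with IgM and IgD, switch to IgG, IgA or IgE by deleting the DNA between constant region genes, and secrete antibody in large amounts once they have become plasma cells. Bone marrow is both the site where B cells are formed and a long-term niche of plasma cells.

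The members comprised 8 heavy chain, 1 kappa and 4 lambda constant region genes, 113 heavy chain, 100 kappa and 3 lambda V segments, 31 D and J segments, and Jchain. Of these 261 genes, 77 had a count of 0 in all 9 libraries, 184 had a count in at least 1 library, and 104 had a total of at least 10 counts. The genes at 0 included all 31 D and J segments and Iglc4. In the annotation D and J segments are 10 to 54 bases long, while the V segment transcripts span 294 to 501 bases and the reads 150. The short segments are shown by Igkj1 (chr6:70722562-70722599, plus strand), which joins to kappa V segments, and Ighd1-1 (chr12:113482170-113482192, minus strand), which lies between the V and J parts of a heavy chain. Sequences in lower case were read 5′ to 3′ from the GENCODE M21 transcripts of GRCm38 and are germline reference sequences, not sequences of these samples.
Igkj1: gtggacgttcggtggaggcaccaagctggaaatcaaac
Ighd1-1: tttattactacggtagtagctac

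A further 4 sequences are shown because their V segments led their chain in libraries described below or, for Iglv1, took most lambda V counts. They are the V exons, or the last 300 bases of them, of Igkv6-23 (chr6:70260409-70260706, minus strand), Igkv15-103 (chr6:68437628-68437925, plus strand), Ighv1-64 (chr12:115507545-115507844, minus strand) and Iglv1 (chr16:19085017-19085316, minus strand). Capitals mark the last in-frame cysteine codon, which encodes the conserved cysteine before the region where V joins D or J. It begins 26 bases from the end of both kappa exons, 27 from the end of the Iglv1 exon and 9 from the end of the Ighv1-64 exon.
Igkv6-23: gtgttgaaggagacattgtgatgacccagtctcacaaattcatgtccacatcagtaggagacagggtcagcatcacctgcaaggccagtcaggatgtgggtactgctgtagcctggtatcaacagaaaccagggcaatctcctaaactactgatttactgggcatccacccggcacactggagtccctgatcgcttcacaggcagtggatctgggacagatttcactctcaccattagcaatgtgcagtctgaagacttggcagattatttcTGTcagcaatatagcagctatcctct
Igkv15-103: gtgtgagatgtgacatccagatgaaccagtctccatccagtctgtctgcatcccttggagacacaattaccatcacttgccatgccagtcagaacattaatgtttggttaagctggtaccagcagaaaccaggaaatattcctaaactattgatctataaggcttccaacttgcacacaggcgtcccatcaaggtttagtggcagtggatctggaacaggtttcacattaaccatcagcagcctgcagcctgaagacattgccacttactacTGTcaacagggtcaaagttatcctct
Ighv1-64: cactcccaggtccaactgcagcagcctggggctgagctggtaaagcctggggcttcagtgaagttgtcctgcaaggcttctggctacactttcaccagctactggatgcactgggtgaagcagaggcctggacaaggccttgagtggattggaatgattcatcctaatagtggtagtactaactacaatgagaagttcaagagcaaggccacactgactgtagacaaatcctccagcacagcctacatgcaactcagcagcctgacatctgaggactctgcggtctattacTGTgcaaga
Iglv1: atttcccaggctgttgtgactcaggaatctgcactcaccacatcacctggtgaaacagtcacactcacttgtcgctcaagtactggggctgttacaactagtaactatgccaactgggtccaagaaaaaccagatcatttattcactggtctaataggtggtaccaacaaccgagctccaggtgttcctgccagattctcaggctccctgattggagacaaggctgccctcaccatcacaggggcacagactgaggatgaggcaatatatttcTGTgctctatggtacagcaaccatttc

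The IgG subclass genes differ in the hinge, the short exon between the antigen-binding arm and the stem of the molecule. The hinge exons are shown because the subclasses did not move together. Capitals mark the in-frame cysteine codons, of which Ighg1 (chr12:113329844-113329882) and Ighg2b (chr12:113307261-113307326) have 4 each, Ighg2c (chr12:113288263-113288325) has 3 and Ighg3 (chr12:113360529-113360576) has 1, all on the minus strand. The exons are 39, 66, 63 and 48 bases long.
Ighg1: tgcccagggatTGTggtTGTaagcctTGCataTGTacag
Ighg2b: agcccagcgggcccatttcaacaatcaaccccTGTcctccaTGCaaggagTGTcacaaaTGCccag
Ighg2c: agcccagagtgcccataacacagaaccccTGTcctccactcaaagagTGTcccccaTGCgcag
Ighg3: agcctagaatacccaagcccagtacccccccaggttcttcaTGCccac
No 150-base stretch of a constant region transcript or of the 4 V segments above occurred in a transcript of another member. Of the 216 V segments, 18 shared at least 1 such stretch with another member, and their counts are uncertain. Counts of other V segments can be uncertain too, since Igkv1-110 shared no such stretch and still had counts that were not whole.

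Libraries held between 16987398 and 23272480 counts, and SR-717 replicate 1 stood apart from the other libraries in the results below. Immunoglobulin genes took 0.00457% to 0.0616% of the counts of a library. Their summed counts were 1239, 7425 and 835 in the PBS libraries, 4354, 5762 and 1705 in the H-151 libraries, and 12769, 4129 and 1661 in the SR-717 libraries. Values below are given as CPM, counts per 1000000 counts of a library scaled by its TMM factor (a correction for differences in library make-up), unless stated otherwise. The sum over all members averaged 145 ± 149 CPM with PBS, 198 ± 96.6 CPM with H-151 and 315 ± 298 CPM with SR-717 (SD, n = 3 each). The SDs were of the size of the means in the PBS and SR-717 groups, and each pair of groups overlapped. The highest library, SR-717 replicate 1 at 654 CPM, was 2.07 times the next, PBS replicate 2 at 316 CPM, and 14.0 times the lowest, PBS replicate 3 at 46.6 CPM. In bulk RNA, a lower number of B cells or plasma cells and less RNA per cell cannot be told apart.

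Ighm, the constant region of IgM (chr12:113418558-113422730, minus strand), had 21.6, 124 and 27.8 CPM in the PBS libraries, 80.7, 122 and 43.3 CPM in the H-151 libraries, and 111, 93.0 and 49.7 CPM in the SR-717 libraries. The 4 highest libraries came from all 3 groups. Ighd, the constant region of IgD, which naive B cells make together with IgM from one transcript, had 0.690, 3.32 and 1.56 CPM with PBS, 1.83, 4.66 and 2.88 CPM with H-151, and 0.307, 2.81 and 0.868 CPM with SR-717. Its lowest value was that of SR-717 replicate 1, with 6 counts against 12 to 94 in the other libraries. Per transcript length, by the authors' TPM, the ratio of Ighd to Ighm was 0.00238 in that library and 0.0158 to 0.0592 in the other 8.

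The IgG subclass genes separated SR-717 replicate 1 from all other libraries. Ighg2b, whose product binds Fc receptors and complement, had 2.24, 7.36 and 0.948 CPM with PBS, 4.69, 5.60 and 1.39 CPM with H-151, and 106, 3.00 and 0.463 CPM with SR-717. The first SR-717 library held 2076 counts and the third held 8, the lowest of all 9. Ighg2c, the C57BL/6 counterpart of the IgG2a gene of other strains, had 2.24, 7.23 and 0.781 CPM with PBS, 3.60, 5.20 and 1.55 CPM with H-151, and 45.6, 3.05 and 2.66 CPM with SR-717. Ighg3, a subclass known from responses to carbohydrate antigens, held 1, 55 and 1 counts with PBS, 16, 4 and 8 with H-151, and 1144, 0 and 2 with SR-717. All 3 were highest in SR-717 replicate 1, while the other SR-717 libraries lay within the range of the PBS libraries or below it.

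Ighg1, which lies between Ighg3 and Ighg2b on the chromosome, went another way. It had 0.287, 6.55 and 0.223 CPM with PBS, 0.543, 1.39 and 2.55 CPM with H-151, and 3.79, 2.58 and 2.61 CPM with SR-717. Its highest library was PBS replicate 2, and the 3 SR-717 libraries were all above the 3 H-151 libraries, the lowest at 2.58 CPM against the highest at 2.55 CPM. Igha, the constant region of IgA, the antibody of mucosal surfaces, had 16.3, 52.5 and 3.24 CPM with PBS, 42.7, 42.5 and 12.4 CPM with H-151, and 39.5, 25.9 and 13.0 CPM with SR-717, so SR-717 replicate 1 was not extreme. Ighe, the constant region of IgE, had 1 count in each of 2 H-151 libraries and 0 in the other 7. A count of 0 allows up to 3 counts, so no difference in Ighe was detectable at this depth.

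Igkc, the constant region of kappa light chains (chr6:70726435-70726966, plus strand), had 16.7, 54.4 and 6.47 CPM with PBS, 39.5, 51.9 and 17.0 CPM with H-151, and 165, 34.7 and 15.0 CPM with SR-717. SR-717 replicate 1 was 3.03 times the next library, PBS replicate 2. Of the lambda constant region genes, Iglc1 ranged from 1 to 130 counts, Iglc2 from 4 to 61 and Iglc3 from 3 to 48. Iglc1 and Iglc2 were highest in SR-717 replicate 1 and Iglc3 in PBS replicate 2. Jchain, the small protein that links IgM or IgA into polymers (chr5:88519809-88527891, minus strand), had 3.22, 15.7 and 1.34 CPM with PBS, 10.2, 10.8 and 5.05 CPM with H-151, and 19.4, 7.70 and 3.13 CPM with SR-717. Its ratio to Igkc in TPM was 0.0450 in SR-717 replicate 1 and 0.0735 to 0.114 in the other 8 libraries.

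**Figure D1:**
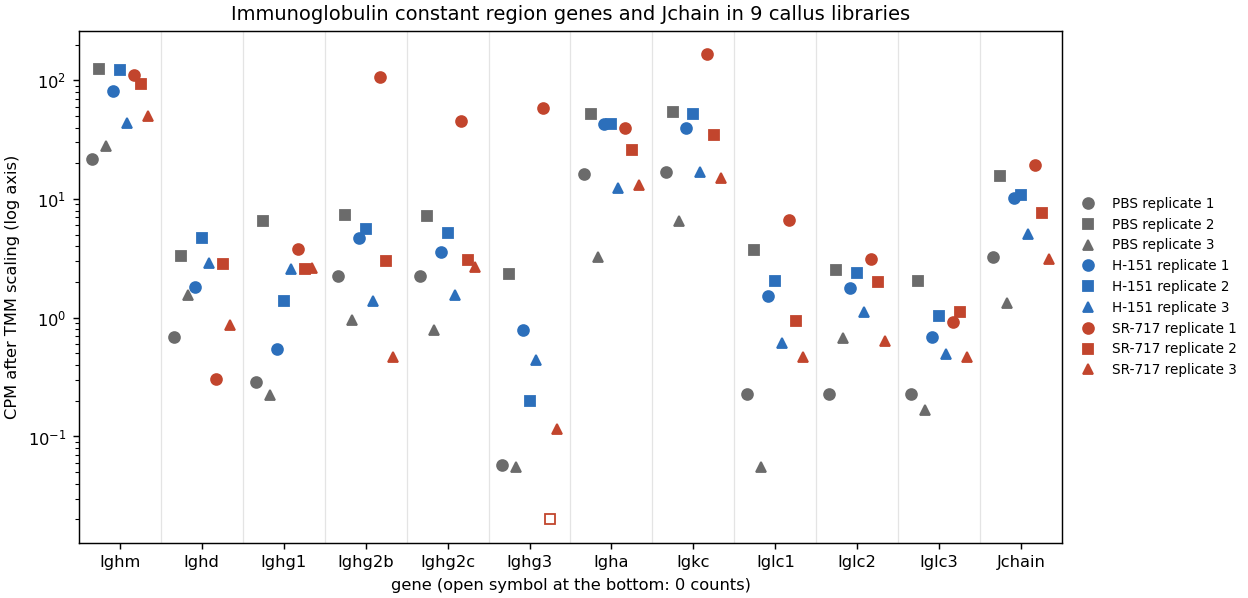
Level of 11 constant region genes and Jchain (CPM after TMM scaling, log axis) in each of 9 libraries, with the group by color and the replicate number by symbol; each point is 1 library. SR-717 replicate 1 lies far above the other libraries for Ighg2b, Ighg2c and Ighg3, highest for Igkc, and lowest for Ighd; the open square for Ighg3 is a count of 0 in SR-717 replicate 2.

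Classes were then compared within a library, which removes differences in the total amount of immunoglobulin RNA. By TPM, the 4 IgG genes made up 13.1%, 14.2% and 7.96% of heavy chain constant region expression in the PBS libraries and 8.81%, 8.63% and 11.9% in the H-151 libraries. In the SR-717 libraries the shares were 64.1%, 8.62% and 10.98%. SR-717 replicate 1 was the exception, with 31.5% Ighg2b, 17.9% Ighg3, 13.6% Ighg2c and 1.15% Ighg1, and the other 8 libraries lay between 7.96% and 14.2%. By counts, the IgG share in that library was 58.6% (95% Wilson interval 57.5% to 59.8%) of 7136 heavy chain constant region counts, and 5.80% to 11.5% in the other 8. Intervals cover counting error only. IgM made up 24.0% of that library by TPM and 40.9% to 75.5% of the others. The IgA share ran from 12.8% to 44.8% in the other 8 libraries and was 11.9% in SR-717 replicate 1. The group means of the IgG share were 11.8% ± 3.34 with PBS, 9.79% ± 1.86 with H-151 and 27.9% ± 31.3 with SR-717 (SD, n = 3), so the SR-717 mean rests on 1 library.

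The light chains were more even. Kappa took 86.8% to 96.0% of light chain constant region counts in the 9 libraries, and the means were 90.2% ± 5.04 with PBS, 89.9% ± 1.29 with H-151 and 91.3% ± 2.31 with SR-717 (SD, n = 3). The differences between the group means were smaller than the SD of the PBS group.

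**Figure D2:**
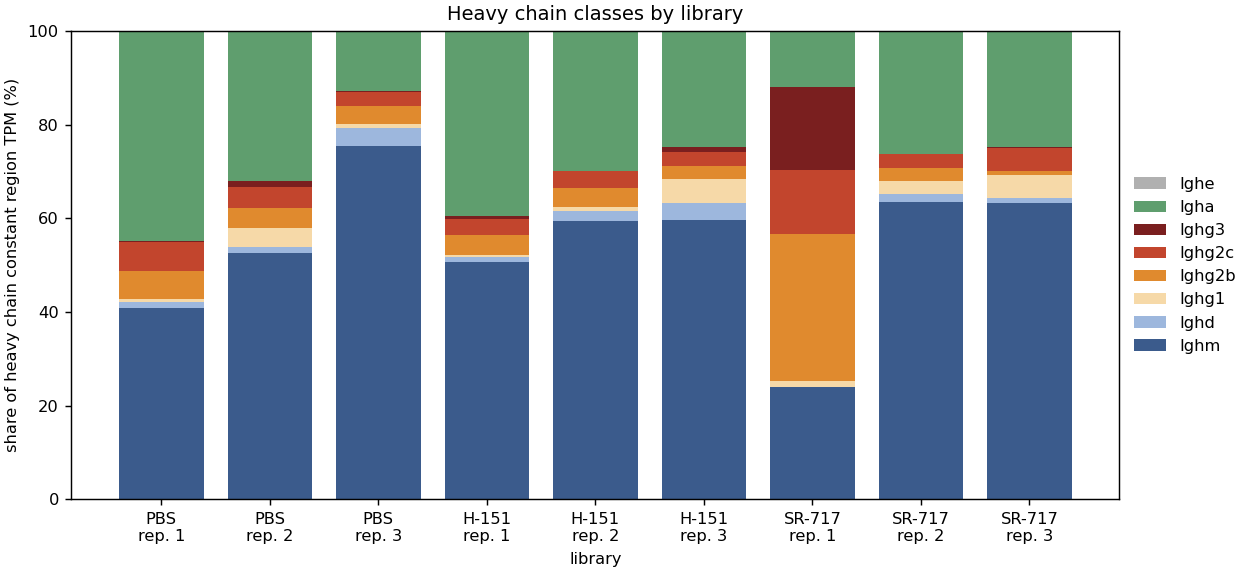
Share of each heavy chain class in the constant region expression of a library (percent of TPM, stacked bars from 0 to 100), for 3 PBS, 3 H-151 and 3 SR-717 libraries. In SR-717 replicate 1 the IgG genes fill 64.1% of the bar, against 7.96% to 14.2% in the other libraries, where Ighm and Igha dominate.

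V segment counts show which V segments were transcribed, as far as the counting assigned reads to them. They do not show which constant region a V segment was joined to. Heavy chain V segments summed to 10 to 522 counts per library, or 1.61% to 7.32% of the heavy chain constant region counts. Kappa V segments summed to 37 to 1081 counts, or 16.7% to 44.8% of Igkc. SR-717 replicate 1 held 37.9% of all heavy chain V counts of the 9 libraries, 39.4% of the kappa and 41.5% of the lambda V counts. Of 44 heavy chain V segments with a total of at least 10 counts, 19 were highest in it, as were 17 of 45 kappa segments. Another 8 heavy chain and 5 kappa segments of these had a count of 0 there.

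In the heavy chain, Ighv1-64 led in SR-717 replicate 1 with 91 of 522 V counts, or 17.4% (Wilson interval 14.4% to 20.9%). Its other counts were 0, 12 and 0 with PBS, 13, 14 and 2 with H-151, and 0 and 6 in the other SR-717 libraries. It also led in SR-717 replicate 3, where the 6 counts were 17.1% of 35 heavy chain V counts. Ighv1-72 had 64 of its 86 counts in the same library, and Ighv6-3 had 53 of 59. Ighv7-3 had 48 counts there, 4 in SR-717 replicate 2 and 1 in H-151 replicate 2. Ighv7-1 was distributed differently, with 26 counts in H-151 replicate 2 but 2 in SR-717 replicate 1. In libraries with few V counts a segment passed a share of 10% on few counts, as Ighv3-6 did with 5 counts in PBS replicate 1 and Ighv4-1 with 10 counts in H-151 replicate 3. The Ighv1 family, the largest, took 55.2% of all heavy chain V counts and 43.2% to 65.7% within a library.

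Among kappa V segments, Igkv6-23 held 248 counts in SR-717 replicate 1, of 281 in all 9 libraries, which were 22.9% (Wilson interval 20.5% to 25.5%) of its kappa V counts. In the other libraries it held 0, 4 and 0 counts with PBS, 2, 15 and 4 with H-151, and 5 and 3 with SR-717. Igkv16-104 was similar, with 148 counts there, 0 in each of the other SR-717 libraries and at most 12 elsewhere. Igkv1-110 held 168.68 counts in SR-717 replicate 1 and was also the leading kappa segment of PBS replicates 1 and 3, with 14 and 8.73 counts. Its values of 168.68 and 8.73 are expected counts that are not whole. Igkv15-103 showed that a single segment could dominate in a library of another group. It held 165 counts in H-151 replicate 2, or 35.2% (Wilson interval 31.0% to 39.6%) of its 469 kappa V counts, against 38 and 0 in the other H-151 libraries, 11, 47 and 3 with PBS and 20, 45 and 4 with SR-717. Igkv10-96 led in H-151 replicate 3 and SR-717 replicate 3 with 11 and 15 counts. Igkv3-2, with 37 counts in all, and Igkv9-120, with 36.9, passed 10% of the kappa V counts in 1 library each.

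The number of equally common segments that would give the same concentration, the inverse Simpson number, was 12.4 for heavy chain V in SR-717 replicate 1 and 31.8 in PBS replicate 2. For kappa V it was 9.13 in SR-717 replicate 1, 21.9 in PBS replicate 2, and as low as 6.99 in H-151 replicate 2. The lowest value among libraries with over 100 kappa V counts was thus in the H-151 group. Libraries with few V counts are bound to show few segments, and PBS replicate 3 held 10 heavy chain V counts on 10 segments. In the lambda locus, Iglv1 took 75.0% to 100% of V counts in each library, with 203 of 222 counts in SR-717 replicate 1 and 103 of 124 in PBS replicate 2. Iglv2 held 55 counts over all libraries and Iglv3 held 13.

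**Figure D3:**
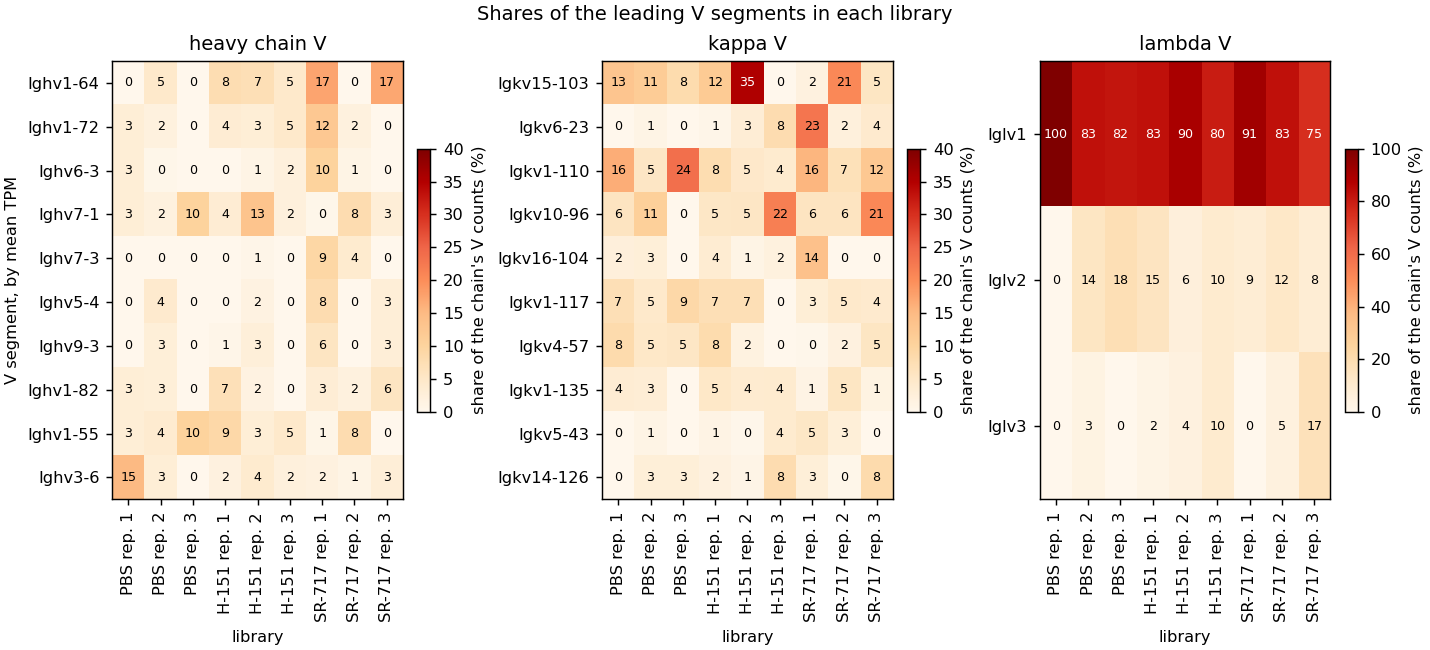
Share of a chain's V counts taken by its leading V segments (10 heavy chain, 10 kappa and all 3 lambda, ordered by mean TPM) in each of 9 libraries, with the percent written in each cell; the scale of the lambda panel runs to 100%. Ighv1-64, Igkv6-23 and Igkv16-104 stand out in SR-717 replicate 1 and Igkv15-103 in H-151 replicate 2; several other cells rest on few counts, since heavy chain V counts per library run from 10 to 522.

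No immunoglobulin gene passed the test of SR-717 against H-151, the comparison of STING activation with STING inhibition. The IgG sum was 76.2 ± 120 CPM with SR-717 and 9.32 ± 3.24 CPM with H-151 (SD, n = 3), a log2 ratio of means of 3.03, and -0.36 without SR-717 replicate 1. Of 19 members with enough counts to be tested by edgeR's quasi-likelihood test, 0 reached an unadjusted p under 0.05 (background over the 14151 genes tested 1.03%) and 0 a Benjamini-Hochberg adjusted p under 0.05 (background 0%). Ighg2c had a log2 fold change of 2.31 (SE 1.20, unadjusted p = 0.101, adjusted p = 0.996, edgeR). Ighg2b had 3.23 (SE 1.76, adjusted p = 0.996, edgeR) and Ighg1 1.01 (SE 0.55, adjusted p = 0.996, edgeR). Ighg1 was the 1 tested member whose groups did not overlap, where 5.05% of all genes tested did not and 2.23% were higher without overlap. Without SR-717 replicate 1, Ighg2b had -1.14 (SE 0.84) and Ighg2c -0.27 (SE 0.50), while Ighg1 had 0.81 (SE 0.58) and still did not overlap, as for 7.49% of all genes in that direction with 2 libraries left. Igkc had 0.99 (SE 0.89), and -0.53 (SE 0.52) without that library. Ighm had 0.05 (SE 0.44), Igha -0.31 (SE 0.57), Jchain 0.22 (SE 0.66) and Ighd -1.21 (SE 0.78). The median over the 19 members was 0.22 and over all genes tested 0.02. Ighg3 was below the filter on low counts, which needs the gene in at least 3 libraries, and without the filter edgeR gave it an adjusted p of 0.977.

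In the comparison of SR-717 with PBS, which sets STING activation against the vehicle, 0 of 16 members tested passed an unadjusted p of 0.05, against 0.689% of 14070 genes, and 0 passed an adjusted p of 0.05. The IgG sum in the PBS group was 10.1 ± 11.7 CPM (SD, n = 3), which gave a log2 ratio of 2.92, and -0.48 without SR-717 replicate 1. The corresponding ratios of the sum over all members were 1.12 and 0.0042. Ighg2b had a log2 fold change of 3.38 (SE 1.85, adjusted p = 1.00, edgeR), Igkc 1.48 (SE 1.07) and Igkv1-110 2.14 (SE 1.13). Ighm had 0.56 (SE 0.71), Igha 0.14 (SE 0.91) and Jchain 0.59 (SE 1.01). No tested member had groups without overlap, where 3.98% of all genes did. The median over the 16 members was 0.73, and -0.036 without SR-717 replicate 1, beside 0.01 and -0.02 over all genes tested. Without PBS replicate 2, 4 of 18 members (Ighm, Ighg1, Iglc1 and Iglc3) were higher with SR-717 at an unadjusted p under 0.05, where 1.17% of all genes were higher, and 0 had an adjusted p under 0.05 in edgeR. PBS replicate 2 was the highest PBS library, at 316 CPM over all members, so leaving it out lowers the PBS level by construction.

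In the comparison of H-151 with PBS, 0 of 17 members passed an unadjusted p of 0.05, against 0.646% of 14085 genes, and 0 passed an adjusted p of 0.05. In 0 members did the groups not overlap, against 3.76% of genes. Ighm had a log2 fold change of 0.50 (SE 0.71), Igkc 0.48 (SE 0.75), Ighd 0.73 (SE 0.60) and Jchain 0.35 (SE 0.82). Ighg1 had -0.68 (SE 1.23), Ighg2b 0.14 (SE 0.79) and Igha 0.44 (SE 0.90). The labels do not say whether libraries with the same replicate number belong together. The number was used as a block because same-numbered libraries correlated after group means were subtracted. In the fit with this replicate block Igkc had 0.83 (SE 0.30, unadjusted p = 0.037, adjusted p = 1.00, edgeR) and Ighd 0.87 (SE 0.30, unadjusted p = 0.030, adjusted p = 1.00, edgeR). These were 2 of 17 members in a fit in which 3.06% of all genes passed that level and 1.90% were higher. This comparison depended on PBS replicate 2, the PBS library with the highest sum over all members (316 CPM against 71.2 and 46.6 CPM). Without it, 10 of 19 members were higher with H-151 at an unadjusted p under 0.05, where 3.85% of all genes were higher, and 0 of them had an adjusted p under 0.05 (smallest 0.667, edgeR). The 10 members comprised Ighm, Ighd, Ighg1, Igkc, Iglc1, Iglc2, Iglc3, Jchain, Ighv1-64 and Igkv10-96. Leaving out the highest PBS library lowers the PBS level by construction. Members such as Igkc and Jchain also varied together, so the 10 are not independent results. The comparisons share their groups of libraries, so their values are not independent of each other.

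**Figure D4:**
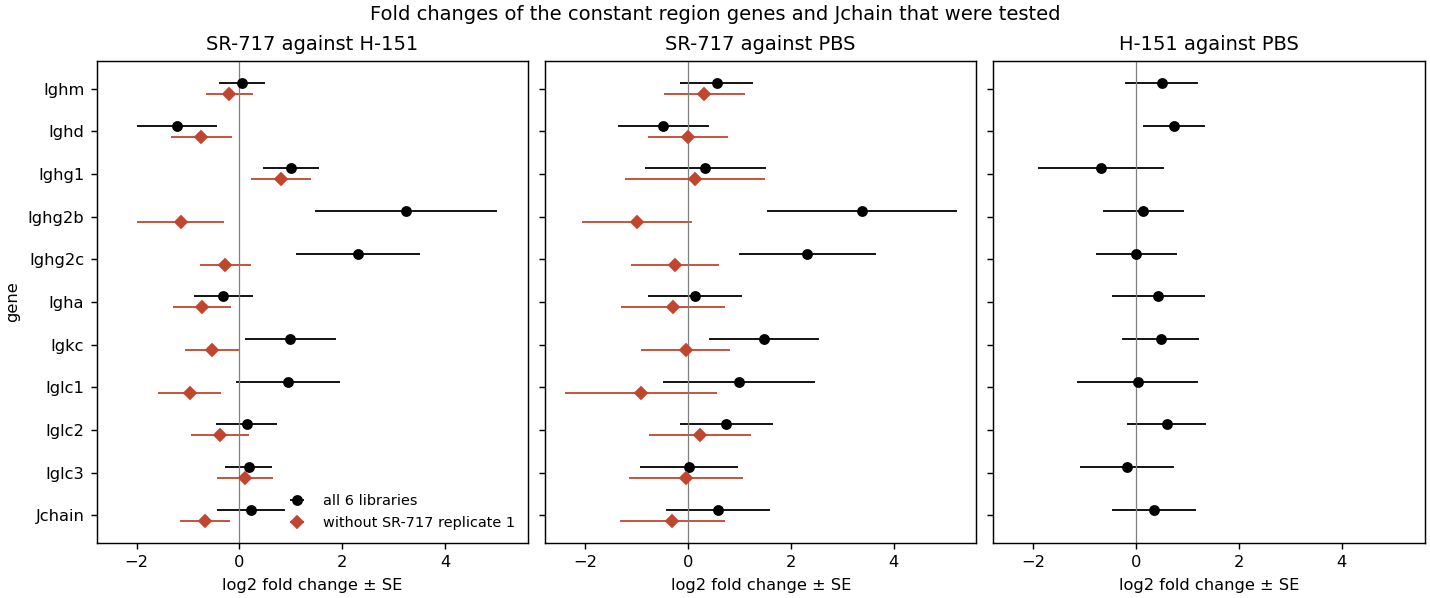
Log2 fold change (edgeR) with its standard error for the constant region genes and Jchain that had enough counts to be tested, in the 3 comparisons; black circles use all 6 libraries and red diamonds leave out SR-717 replicate 1, which is not part of the third panel. Without that library the estimates for Ighg2b, Ighg2c, Igkc and Iglc1 lie below 0 in both SR-717 comparisons.

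Genes of antibody-secreting cells and of B cells were read beside the immunoglobulin genes to see which of them shared their distribution over the libraries. Genes below that are not among the 4 most abundant of their list were chosen after their values were seen. Of 13 to 14 plasma cell genes tested, 0 were called at an unadjusted p under 0.05 in each of the 3 comparisons, and the median log2 fold change lay between -0.10 and 0.18. The most abundant ones, Txndc5, Xbp1, Sdc1 and Fkbp11, are also used by other secretory cells. Xbp1, the transcription factor of the secretory program, had 255 ± 25.2 CPM with PBS, 235 ± 14.0 CPM with H-151 and 241 ± 39.5 CPM with SR-717 (SD, n = 3). Mzb1, a chaperone of B cells and plasma cells, had 0.517, 5.06 and 0.948 CPM with PBS, 2.86, 4.11 and 1.33 CPM with H-151, and 4.81, 4.22 and 2.61 CPM with SR-717. Tnfrsf17, the plasma cell receptor for APRIL, had 0 counts in SR-717 replicate 1 and 1 to 9 in the other libraries. Of the 15 plasma cell genes, 4 were highest in SR-717 replicate 1 and 4 were among their lowest 2 values there. The highest were Prdm1, Slamf7, Derl3 and Edem1. They held 780, 476, 20 and 4605 counts there, against at most 553, 213, 15 and 3541 elsewhere.

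In SR-717 replicate 1, where immunoglobulin RNA was highest, part of the B cell genes were low. Of 15 mature B cell genes, 9 were below their median over the 9 libraries there and 6 among their lowest 2 values, and of 10 early B cell genes, 7 and 4. The others included Cd37 and Il7r, which other leukocytes also use and which were highest there at 76.0 and 12.5 CPM against at most 38.3 and 10.4 elsewhere, and Ebf1 and Cd22, which were in the middle to upper range. The summed levels, in which the abundant genes weigh most, were therefore not low, at 131 CPM against 67.5 to 150 for mature and 251 CPM against 204 to 272 for early B cell genes. Cd79a, a signaling chain of the B cell receptor, had 1.55, 15.1 and 2.68 CPM with PBS, 14.3, 20.9 and 6.99 CPM with H-151, and 2.00, 17.5 and 5.67 CPM with SR-717. SR-717 replicate 1 was the second lowest of the 9. Pax5, the B lineage transcription factor, held 13 counts there and 3 to 137 elsewhere, and the pre-B cell genes Vpreb3 and Igll1 14 and 18 against 5 to 121 and 7 to 161. Rag1, part of the recombinase that joins V, D and J segments, held 5 counts in SR-717 replicate 1, as in PBS replicates 1 and 3, and 15 to 122 in the other 6. There were 82.6 Igkc counts per Cd79a count in SR-717 replicate 1 and 10.8 in PBS replicate 1, while the other 7 libraries lay between 1.98 and 3.59. Per Vpreb3 count the values were 230 and 58.2, against 6.84 to 11.6. The part of cell numbers in these ratios was not tested.

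In the tests, the mature B cell list had 1 gene called, in 1 of the 3 comparisons. Ms4a1, the gene of the B cell antigen CD20, had a log2 fold change of -1.57 (SE 0.63, unadjusted p = 0.045, adjusted p = 0.996, edgeR) for SR-717 against H-151, 1 of 14 list genes where 0.537% of all genes were lower, and without SR-717 replicate 1 the list had 0. Its libraries held 3, 13 and 3 counts with SR-717 and 25, 22 and 10 with H-151. Of the early B cell genes, 0 of 8 to 9 were called. In the fit of H-151 against PBS the medians of the mature and early B cell lists were 0.68 and 0.94, beside -0.02 over all genes, with 13 of 14 and 8 of 9 genes above 0. With the replicate block, 5 of 64 tested genes of the 6 lists on plasma cells, mature and early B cells, class switching, immunoglobulin receptors and support were higher and 1 was lower at an unadjusted p under 0.05, where 1.90% of all genes were higher and 1.16% lower. Among them were Cd79a (1.57, SE 0.52), Cd79b (0.92, SE 0.25) and Rag1 (2.13, SE 0.56), with adjusted p-values of 1.00 in edgeR. For SR-717 against PBS the block gave 10 higher of 62 tested genes of these lists, against 0 without the block, in a fit in which 3.80% of all genes passed and 2.75% were higher. It gave 0 of the 16 members. These 10 included Fcgr4 (0.99, SE 0.35), Fcgr2b (0.70, SE 0.23) and Fas (0.97, SE 0.29), again with an adjusted p of 1.00 in edgeR.

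Of the 11 genes with a count in the list of antibody receptors and their subunits, 6 were highest in SR-717 replicate 1, which were the Fcγ receptors Fcgr1, Fcgr2b, Fcgr3 and Fcgr4, Fcer1g and Trim21. Fcer1g, the signaling chain shared by activating Fc receptors, had 262, 104 and 92.4 CPM with PBS, 145, 115 and 102 CPM with H-151, and 496, 133 and 114 CPM with SR-717. Fcgr4, the mouse receptor for IgG2b and IgG2c, held 2361 counts there and 128 to 584 elsewhere, Fcgr3 5942 against 710 to 1903, and the inhibitory receptor Fcgr2b 5499 against 786 to 2126. Myeloid cells carry the Fcγ receptors, and the summed level of 7 neutrophil genes was 13612 CPM in SR-717 replicate 1 and 560 to 4594 CPM in the other 8. The part of these cells in the receptor values was not tested. Fcgrt, the neonatal Fc receptor that recycles IgG, was lowest in it, at 98.8 CPM against 133 to 174. Fcmr, the IgM receptor of B cells, was second lowest at 0.102 CPM against 0.057 to 2.63, and the mast cell IgE receptor genes Fcer1a and Ms4a2 were not highest either. Of the 8 receptor genes tested, 0 were called in each comparison without the block, and the median for SR-717 against H-151 was 0.99, and -0.037 without SR-717 replicate 1. Fcamr, the receptor for IgA and IgM, was at 0 in all libraries and Pigr, which carries polymeric antibody across epithelia, at 0 to 5 counts.

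Genes of class switching and of germinal centres, where B cells mutate and select their antibodies, gave 0 calls among 10 to 11 tested. Of the 12 genes of this list, 6 were highest in SR-717 replicate 1 and 2 were below their median there. Batf and Fas, which are also used by activated T cells and other cells, had 654 and 736 counts in SR-717 replicate 1, against at most 200 and 261 elsewhere. Of 9 support genes tested, which include Cxcl12 of the plasma cell niche and the APRIL and BAFF receptor Tnfrsf13b, 0 were called. Of all 15 support genes, 10 were highest in SR-717 replicate 1 and 2 were below their median there. Tnfrsf13b held 431 counts in that library, against at most 264 elsewhere. Cxcl12 had 629 ± 61.3 CPM with PBS, 617 ± 22.2 CPM with H-151 and 698 ± 105 CPM with SR-717 (SD, n = 3).

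**Figure D5:**
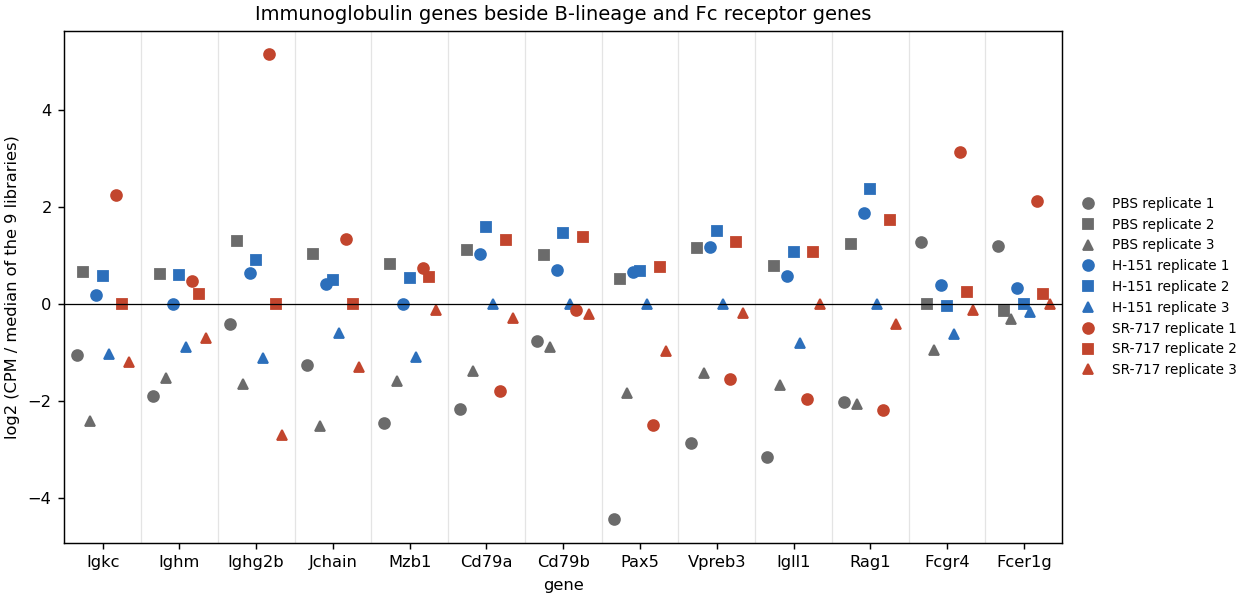
Level of 13 genes in each library relative to the median of the 9 libraries (log2 of the CPM ratio), with the group by color and the replicate number by symbol. SR-717 replicate 1 lies above the median for Igkc, Ighg2b, Jchain, Fcgr4 and Fcer1g and below it for Cd79a, Pax5, Vpreb3, Igll1 and Rag1, while PBS replicates 1 and 3 lie below it for all immunoglobulin and B cell genes shown.

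Across the 9 libraries, Igkc followed Jchain. On log2(CPM + 0.1), Pearson's r was 0.958 (exact permutation p = 5.2e-05, adjusted over 4 relations 2.1e-04, n = 9) and Spearman's rho was 1.00 (exact permutation p = 5.5e-06, adjusted 2.2e-05). Without the 2 libraries farthest from the median of Jchain, PBS replicate 3 and SR-717 replicate 1, r was 0.963, and with the group means removed it was 0.967. The Jchain order of the libraries was thus the Igkc order. Ighm followed Jchain with r = 0.888 (exact permutation p = 0.0019, adjusted 0.0037, n = 9) and rho = 0.85 (exact permutation p = 0.0061, adjusted 0.012), and r = 0.885 without the same 2 libraries. For Ms4a1, the relation with Igkc had r = 0.133 (exact permutation p = 0.73, adjusted 0.73, n = 9) and rho = 0.25 (exact permutation p = 0.52, adjusted 0.52), and the relation with Ighm r = 0.556 (exact permutation p = 0.12, adjusted 0.16, n = 9) and rho = 0.40 (exact permutation p = 0.29, adjusted 0.39). Without PBS replicate 1, where Ms4a1 had a count of 0, and SR-717 replicate 1, r was 0.575 and 0.496. Ms4a1 held at most 25 counts in a library, so its own counting error is large.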

How the data were processed

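RNA of day 7 callus was sequenced in 9 libraries (poly(A)-selected, strand-specific, paired reads of 150 bases), 3 per group, and each library was grouped by its sample label. The authors deposited expected counts per gene, which are estimates that need not be whole and are not normalized, and TPM, which the authors scaled for gene length and library total. The submitters' processing notes name mm10 (GRCm38). The aligner, the counting program and its use of strand are not given in the sources used here, so the assignment of reads to V segments and to overlapping genes is uncertain. Of the members' values, 1.36% were not whole. All 261 members matched GENCODE M21 by identifier.

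Counts were rounded, filtered by filterByExpr with its defaults (a count of 10, a total of 15), normalized by TMM and tested with edgeR 4.0.16 in R 4.3.3 by glmQLFit and glmQLFTest on the 6 libraries of 2 groups, with Benjamini-Hochberg adjustment over all genes tested. The study names DESeq, and DESeq2 1.42.0 was an alternative. At an adjusted p of 0.05, edgeR recovered 135, 121 and 169 of 200 simulated 4-fold changes and 10, 1 and 44 of 200 simulated 2-fold changes (SR-717 against H-151, SR-717 against PBS, H-151 against PBS; 14151, 14070 and 14085 genes). Sums over members were described without a test. Relations used log2(CPM + 0.1), since 1 library had a count of 0. That scale, and leaving out libraries for the class shares, were chosen after seeing the data. Named genes were all constant region genes and Jchain, the 5 V segments per chain with the highest mean TPM, V segments over 10% of a chain's V counts in 1 library, and the 4 most abundant genes per list. Some genes of the lists are not reported here. The members and gene lists were chosen with earlier results of these data known.

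Replicate numbers from the labels run from 1 to 3 in every group, and the labels do not say whether equal numbers mark a shared batch. After subtracting group means, libraries with one number correlated with r of 0.649, 0.341 and 0.140 between the SR-717 and PBS groups and 0.303, 0.485 and 0.502 between the H-151 and PBS groups, so these were also compared with the replicate number as a block. Other alternatives were DESeq2 size factors, no filter, a minimum mean count of 50, a joint fit of all 9 libraries, and each library left out.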

Additional observations from a re-analysis of the deposited data

How the results depend on the processing

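With 3 libraries per group and sums that vary by 14.0 times, moderate differences could not be resolved. Across 33 results for single constant region genes and 383 alternatives, 51 changed sign, 47 of them when a library was left out and the others under the replicate block, and 20 passed an unadjusted p of 0.05. No member passed an adjusted p of 0.05 under any alternative run, and no sign changed with DESeq2 size factors, DESeq2's Wald test, the filters or the fit of all 9 libraries. Without PBS replicate 2, Ighg1 and Iglc3 reversed to 2.52 and 1.88 for H-151 against PBS, with lowest values of -1.31 and -0.63 over the libraries left out.

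Members with an unadjusted p under 0.05, 0 in each comparison as reported, were 1 higher and 1 lower of 171 tested for SR-717 against H-151 without a filter, where 0.763% and 0.653% of all genes were, and 3 higher of 170 for SR-717 against PBS, where 0.809% were. By DESeq2's Wald test 1 of 16 was higher for SR-717 against PBS, where 0.768% of genes were. With the replicate block they were 1 lower of 19 for SR-717 against H-151 (Ighd, 0.473% of genes lower) and 2 higher of 17 for H-151 against PBS. Between SR-717 and H-151, same-numbered libraries correlated with r of 0.341, 0.063 and 0.078, so whether the numbers pair these libraries is uncertain. Over all 9 libraries, 3 correlated best with their own number in both other groups. Leaving out 1 library gave 0 to 5 higher and 0 to 1 lower for SR-717 against H-151 (5 of 26 without SR-717 replicate 3, where 4.13% of all genes were higher, 3 of 24 without SR-717 replicate 2, where 1.54% were, 1 of 27 without H-151 replicate 3, where 0.571% were), 0 to 4 higher for SR-717 against PBS (4 without PBS replicate 2, and 2 of 21 without SR-717 replicate 3, where 1.87% were) and 0 to 10 higher for H-151 against PBS.

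In the related gene lists, 0 higher and 1 lower gene for SR-717 against H-151 became 1 and 0 in the fit of all 9 libraries, 3 and 1 of 64 by DESeq2's Wald test (Fas, Il21r and Tgfb1 higher, where 1.30% of genes were), 0 and 0 with a mean count of at least 50, and 0 and 1 without a filter, the latter Cr2 in place of Ms4a1. With a library left out they were 0 to 7 and 0 to 11. The 7 were of 66 without SR-717 replicate 3, where 4.13% of all genes were higher. The 11 were of 65 without SR-717 replicate 2, where 1.26% of all genes were lower. For SR-717 against PBS, 0 higher became 10 with the replicate block, 1 of 76 without a filter (Ifng) and 0 to 3 with a library left out (3 of 63 without PBS replicate 2, where 1.17% of genes were). For H-151 against PBS, 0 and 0 became 5 and 1 with the block and 0 to 18 and 0 to 2 with a library left out (18 and 2 of 65 without PBS replicate 2, where 3.85% and 2.36% of genes were). The Wald test and the filters were applied to these lists after seeing the data.

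The log2 ratios of summed CPM ranged, with 1 library left out, from -0.36 to 3.58 (IgG) and -0.54 to 1.47 (Igkc) for SR-717 against H-151. For SR-717 against PBS they ranged from 0.15 to 1.78 (IgM), -0.48 to 4.48 (IgG) and -0.22 to 2.78 (lambda). For H-151 against PBS they ranged from 0.036 to 1.75 (all members), 0.098 to 1.73 (IgM), -0.60 to 1.45 (IgG) and -0.23 to 2.30 (lambda). The low ends in the SR-717 comparisons for IgG, Igkc and lambda are without SR-717 replicate 1 and the high ends in the PBS comparisons without PBS replicate 2. By counts in place of TPM, the IgG share in the H-151 group was 7.72%. Apart from the libraries left out, the cause was not tested.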

Other observations

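T cell genes were read as a list of 8. Their summed level was 53.0 CPM in SR-717 replicate 1 and 17.5 to 28.9 CPM in the other 8 libraries, and 0 of 8 were called in each comparison without the replicate block. Of the 8 genes, 7 were highest in SR-717 replicate 1, while Cd28 was lowest there, with 43 counts against 45 to 121 elsewhere. Cd3e held 86 counts in SR-717 replicate 1 and 8 to 20 elsewhere, and Cd8a 55 against 5 to 29. Il21, a T cell cytokine that drives plasma cell formation, had 10 counts in SR-717 replicate 1 and 0 in the other 8 libraries, Ifng, the gene of interferon gamma, 22 counts against 0 to 2, and Cd40lg, the T cell ligand of the B cell receptor CD40, 12 against 0 to 2. These genes were chosen after their values were seen, and the Il21 count in the other libraries allows up to 3 counts each.

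Marker lists of other tissues in the callus varied as well. The summed level of 12 bone and cartilage genes was 40997 CPM in SR-717 replicate 1 and 56297 to 86559 CPM in the other libraries. For 6 erythroid genes the range was 430 to 13810 CPM, with PBS replicates 1 and 3 and SR-717 replicate 1 as the 3 lowest, at 430, 1473 and 792 CPM. These 3 libraries were also the 3 lowest for Cd79a. For 6 skeletal muscle genes the range was 4074 to 22838 CPM, lowest in PBS replicate 3, and for 8 keratinocyte genes it was 4.02 to 13.5 CPM. Without the replicate block, 1 of 3 tested keratinocyte genes was called higher at an unadjusted p under 0.05 for SR-717 against PBS, and the other marker lists had 0 calls. The block changed this. For SR-717 against PBS, 6 of 7 neutrophil genes were then higher and 3 of 12 bone and cartilage genes (Sox9, Acan and Col10a1) lower, and for H-151 against PBS 5 of 7 neutrophil and 5 of 6 erythroid genes were higher, all with an adjusted p of 1.00 in edgeR. These fits had 2.75% of all genes higher and 1.04% lower, and 1.90% higher, respectively. For SR-717 against H-151, the block gave 1 of 8 T cell genes (Cd4) and 2 of 5 keratinocyte genes as higher, where 0.749% of all genes were. Whether the replicate numbers pair the libraries of these 2 groups is not known. The part of these tissues in the immunoglobulin values was not tested.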
